A study of Rattus norvegicus with 6 samples.

Results

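Elastic fibres of the rat tail disc were followed here through 10 genes: Eln, which encodes elastin; the fibrillin genes Fbn1 and Fbn2; the fibulin genes Fbln1, Fbln5 and Efemp2; the microfibril-associated genes Mfap2, Mfap4 and Mfap5; and Emilin1. They were taken by name from a table of 30562 genes, and all 10 were found and passed the filter on low counts. An elastic fibre consists of a core of crosslinked elastin laid on a scaffold of fibrillin microfibrils, and fibulins, microfibril-associated proteins and emilin join elastin to that scaffold. In the annulus fibrosus, the layered outer ring of the disc, elastic fibres run within and between the collagen lamellae and let them recoil after stretch.

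The study compared 3 libraries of discs given PBS with 3 labelled AF-PTK@LEV@SPP1, to ask how a vesicle that carries an siRNA against Spp1 affects the degenerating disc. The latter are called treated-labelled below. By the study's methods, both groups were male Sprague-Dawley rats of 12 weeks with a needle puncture of a tail disc, and injections of 10 μL began 24 h later within a study of 8 weeks. The PBS group received buffer without siRNA. The other group received AF-PTK@LEV@SPP1, a hybrid of liposomes and detoxified outer membrane vesicles of bacteria that bears an annulus-binding peptide on a linker cut by reactive oxygen, with 1 mg/kg of the siRNA. The sample labels give the genotype WT for both groups. They differ from the methods otherwise, with an untreated control, a treatment of 14 days, and macrophages sorted from the discs of mice. The gene identifiers are those of rat. Col2a1, the collagen of the nucleus pulposus and cartilage, had 13878 to 31889 normalized CPM (read counts relative to the scaled library size) over the 6 libraries, and the macrophage gene Adgre1, which encodes F4/80, had 15.3 to 42.9. Adgre1 is 1 of 9 macrophage markers given further on, which were led by Lyz2 and together reached 629 to 2985. By the study's methods the discs came from 3 independent animals in each group, but the labels tie no library to an animal. The p-values measure the spread between these samples.

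Depth was 17942989, 16565291 and 17489851 counts in PBS, and the treated-labelled libraries held 17074981, 15560728 and 17855184. At this depth 3 counts, the floor taken for a measurable level, corresponded to 0.154 to 0.194 normalized CPM, which covers counting error only. The variance between PBS replicates 2 and 3 was 1.33 times that of counting noise, and 16 of 14393 genes (0.111%) differed between them, whereas the 5 other pairs within a group had ratios of 51.3 to 107 and differed in 39.6% to 56.6% of the genes. This pair was therefore counted as 1 sample, which leaves 2 distinct PBS samples against 3 and departs from the 3 PBS animals of the study's methods. An exact permutation test of 2 against 3 samples cannot give a two-sided p below 0.1.

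The study's methods give the siRNA as one against mouse SPP1, whereas the gene identifiers here are those of rat. Its match to the rat transcript was not tested. Spp1, against which the siRNA is directed, had 8125, 4424 and 4428 normalized CPM in PBS and 8050, 6874 and 8437 in the treated-labelled libraries. PBS replicate 1 lay with the latter, the groups overlapped, and Spp1 was not lower under the treatment label. Its log2 fold change was 0.31 (standard error 0.37, edgeR quasi-likelihood test with Benjamini-Hochberg adjustment, adjusted p = 0.628). Without the pair of PBS replicates 2 and 3 it was -0.066 and without PBS replicate 1 it was 0.81, and it was positive in 12 of 13 alternatives and called in 0. All directions below are therefore relative to the labels.

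Of the 10 elastic fibre genes, edgeR's quasi-likelihood test over the 5 distinct samples called 3 as lower in treated-labelled libraries (Fbn2, Mfap4 and Emilin1) and 0 higher at an adjusted p under 0.05. Among all 15537 genes tested, 400 (2.57%) were called lower and 175 (1.13%) higher. At an unadjusted p under 0.05, 5 members were lower and 0 higher, where 13% of all genes tested were lower and 12.4% higher. DESeq2 also called 5 lower and 0 higher, the additional genes being Efemp2 and Mfap2, against 8.75% lower and 6.65% higher among the 16230 genes to which it gave an adjusted p. With all 6 libraries kept as separate samples, the same 5 were called lower and 0 higher, against backgrounds of 9.93% lower and 8.2% higher among 15042 genes. The values of 5 members lay below PBS in all 3 libraries labelled AF-PTK@LEV@SPP1, those of 0 lay above and those of 5 overlapped, where 20.4% of all genes tested lay below without overlap and 21.5% above. The median log2 fold change was -0.48 over the 10 members and 0.05 over all genes tested. All 3 calls were lost when any 1 of the treated-labelled libraries was left out, and the whole table then gave 83, 0 and 0 lower and 30, 0 and 0 higher calls without replicate 1, 2 and 3. Every call named below was therefore lost without treated-labelled replicate 2 or 3. The calls of Fbn2, Mfap4 and Emilin1 were also lost without the pair of PBS replicates 2 and 3, when the whole table gave 3 lower and 0 higher calls. Without PBS replicate 1 the log2 fold changes of Fbn2, Mfap4 and Emilin1 were -4.39, -2.94 and -1.63. Here and below, fits without PBS replicate 1, or without the pair, leave 1 distinct PBS sample. They assume that it varies as the other group does.

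**Figure D1:**
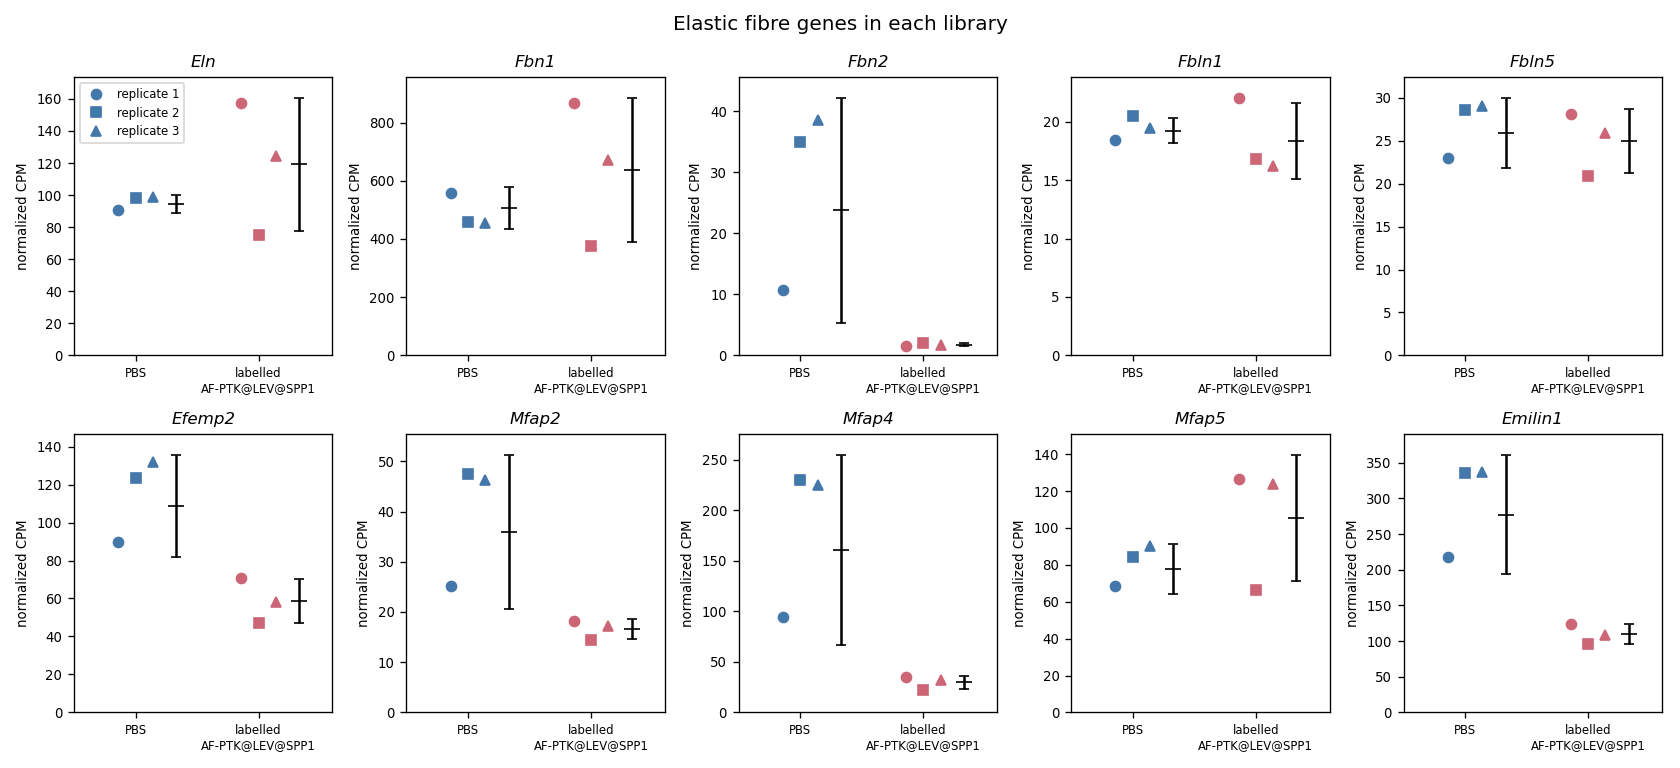
Normalized CPM (y axes, from 0) of the 10 elastic fibre genes in PBS libraries (blue) and libraries labelled AF-PTK@LEV@SPP1 (red), with 1 marker shape for each replicate number and black bars for the mean ± SD of the 2 and 3 distinct samples. Fbn2, Efemp2, Mfap2, Mfap4 and Emilin1 lie lower in all 3 red libraries, while the other 5 genes overlap.

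Elastin is the rubber-like protein of the core. Eln had 90.7, 98.1 and 98.5 normalized CPM in PBS and 158, 75.2 and 125 in the treated-labelled libraries. The PBS libraries stood close together and inside the span of the other group, whose replicate 2 was the lowest of the 6 and replicate 1 the highest. Means were 94.5 ± 5.39 (SD, n = 2) and 119 ± 41.5 (SD, n = 3), and the log2 fold change was 0.33 (95% interval -0.47 to 1.14; edgeR adjusted p = 0.549).

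Fbn1 encodes the main fibrillin of postnatal microfibrils. Its values were 558, 457 and 453 normalized CPM in PBS and 866, 374 and 671 in the treated-labelled libraries. As for Eln, replicate 2 of the latter was the lowest library and replicate 1 the highest, and the groups overlapped. The log2 fold change of Fbn1 was 0.33 (95% interval -0.62 to 1.28; edgeR adjusted p = 0.616). Within a library the 2 genes kept a narrow ratio: 16.3, 21.5 and 21.7 counts of Eln per 100 of Fbn1 in PBS and 18.2, 20.1 and 18.6 in the treated-labelled libraries. These ratios overlapped, and the mean of the PBS samples was 0.998 times that of the others (two-sided exact permutation p = 1).

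In the annotation of the deposited table, whose rat build is not given in the sources used here, Fbn2 lies on chromosome 18 from 51499737 to 51703976, Mfap4 on chromosome 10 from 46167217 to 46170155 and Emilin1 on chromosome 6 from 25445298 to 25463698. Fbn2, the fibrillin best known from developing tissue, showed the largest difference of the 10 members. It had 10.7, 35.0 and 38.6 normalized CPM in PBS and 1.59, 1.98 and 1.70 in the treated-labelled libraries. The 3 libraries of the latter group were nearly level, from 27 to 33 counts each, whereas PBS replicate 1, with 209 counts, stood well below PBS replicates 2 and 3, with 543 and 630. The log2 fold change was -3.76 (standard error 0.55, 95% interval -5.16 to -2.37; edgeR adjusted p = 0.0381), and the mean in PBS was 13.5 times the other (exact permutation p = 0.1). Without the pair of PBS replicates 2 and 3, which leaves PBS replicate 1 alone as the control and assumes that it varies as the other group does, the log2 fold change was -2.61 and edgeR's adjusted p 0.0843. Over the 13 alternatives the adjusted p of Fbn2 ran from 6.9e-09 with DESeq2 to 0.165 with edgeR, whose own lowest value was 0.00756. Counts of Fbn2 per 100 of Fbn1 were 1.93, 7.66 and 8.51 in PBS and 0.183, 0.530 and 0.254 in the treated-labelled libraries. The ratios did not overlap, and their mean in PBS was 15.5 times the other (exact permutation p = 0.1, the smallest possible). Fbn2 itself lay lower without overlap while Fbn1 overlapped, so this ratio largely restates the difference in Fbn2. The same holds for the first gene of each ratio without overlap below.

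Fbln5 and Efemp2 encode fibulin-5 and fibulin-4, which bind elastin and lysyl oxidase and guide elastin onto microfibrils, and Fbln1 encodes a fibulin found within the elastin core. Efemp2 had 89.6, 124 and 132 normalized CPM in PBS and 70.6, 47.2 and 58.1 in the treated-labelled libraries. Its groups did not overlap, with PBS replicate 1 nearest to the other group. Its log2 fold change was -0.89 (95% interval -1.49 to -0.30), which did not pass the threshold (edgeR adjusted p = 0.101). Fbln5 had 23.0, 28.6 and 29.0 normalized CPM in PBS against 28.1, 20.9 and 25.9, and the groups overlapped, with a log2 fold change of -0.06 (95% interval -0.52 to 0.41; edgeR adjusted p = 0.868). Fbln1 had 18.4, 20.5 and 19.5 against 22.0, 16.8 and 16.2, a log2 fold change of -0.07 (95% interval -0.52 to 0.38; edgeR adjusted p = 0.835). The estimates of Fbln1 and Fbln5 lay near 0 and took both signs over the alternatives, Fbln1 being positive in 1 of 13 and Fbln5 in 2 of 13. The counts of Efemp2 per 100 of Fbln5 were 389, 432 and 455 in PBS and 251, 226 and 224 in the treated-labelled libraries. This ratio did not overlap between the groups (exact permutation p = 0.1). Efemp2 overlaps Cfl1 on the same strand in the annotation of the deposited table, and Cfl1 had a mean of 5033 counts a library, so reads in the shared stretch may belong to either gene.

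Mfap2 and Mfap5 encode MAGP-1 and MAGP-2, small glycoproteins that sit on fibrillin microfibrils. Mfap2 had 25.2, 47.4 and 46.2 normalized CPM in PBS and 18.2, 14.4 and 17.2 in the treated-labelled libraries. These values did not overlap, and PBS replicate 1 was again the PBS library nearest to the other group. The log2 fold change was -1.12 (95% interval -1.84 to -0.40) and did not pass the threshold (edgeR adjusted p = 0.0955). Mfap5 had 68.3, 84.3 and 90.0 normalized CPM in PBS and 126, 66.2 and 124 in the treated-labelled libraries. Replicates 1 and 3 of the latter lay above PBS and replicate 2 below it, and the log2 fold change was 0.44 (95% interval -0.38 to 1.25; edgeR adjusted p = 0.435). Within a library, 36.8, 56.3 and 51.3 counts of Mfap2 were found per 100 of Mfap5 in PBS and 14.4, 21.7 and 13.8 in the treated-labelled libraries. The ratio was lower in each of the latter libraries, and its mean in PBS was 2.72 times theirs (exact permutation p = 0.1).

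**Figure D2:**
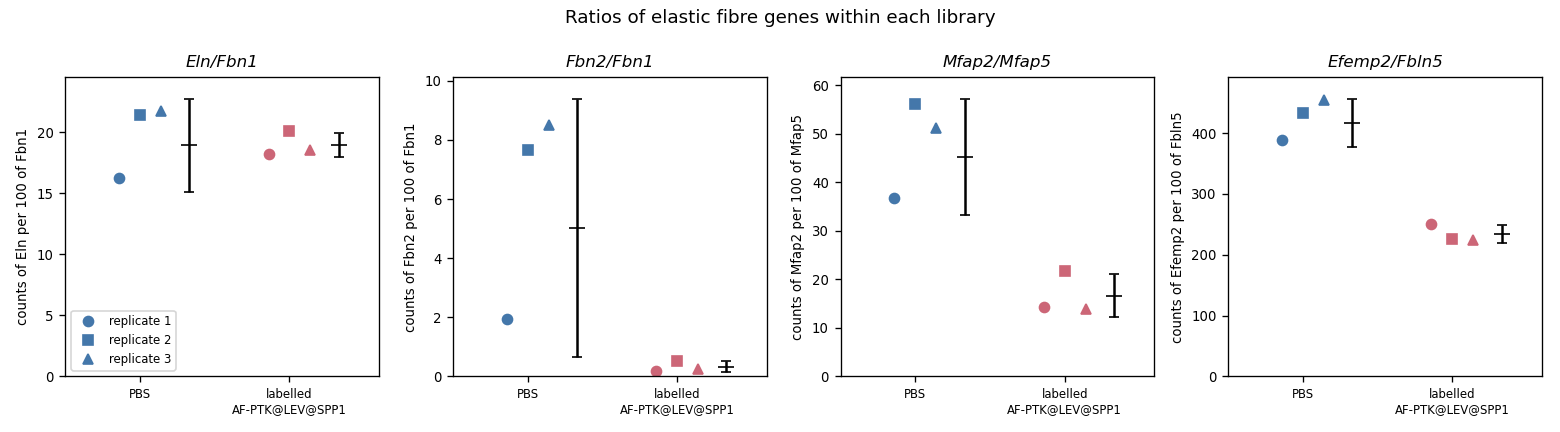
Counts of 1 elastic fibre gene per 100 counts of another in the same library (y axes, from 0), in PBS libraries (blue) and libraries labelled AF-PTK@LEV@SPP1 (red), with 1 marker shape for each replicate number and black bars for the mean ± SD of the 2 and 3 distinct samples. Eln per Fbn1 overlaps between the groups, and Fbn2 per Fbn1, Mfap2 per Mfap5 and Efemp2 per Fbln5 do not.

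Mfap4 encodes a fibrinogen-like protein that binds elastin and collagen. It had 94.1, 230 and 225 normalized CPM in PBS and 34.9, 22.4 and 31.9 in the treated-labelled libraries. The lowest PBS library, replicate 1, stood above all 3 libraries of the other group. Mfap4 fell by 2.44 on the log2 scale (standard error 0.41, 95% interval -3.48 to -1.40; edgeR adjusted p = 0.0476), from 161 ± 94.2 (SD, n = 2) to 29.7 ± 6.54 (SD, n = 3) normalized CPM.

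Emilin1 encodes a glycoprotein found where elastin meets microfibrils. It overlaps Khk on the same strand, a gene with at most 5 counts in any library. It had 218, 336 and 337 normalized CPM in PBS and 125, 96.2 and 108 in the treated-labelled libraries. The groups did not overlap, and PBS replicate 1 stood between the 2 remaining PBS libraries and the other group. Emilin1 fell by 1.34 on the log2 scale (standard error 0.23, 95% interval -1.92 to -0.76; edgeR adjusted p = 0.0483), and its mean in PBS was 2.53 times the other. Per 100 counts of Eln there were 240, 342 and 342 of Emilin1 in PBS and 78.9, 128 and 86.6 in the treated-labelled libraries, again without overlap (exact permutation p = 0.1).

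**Figure D3:**
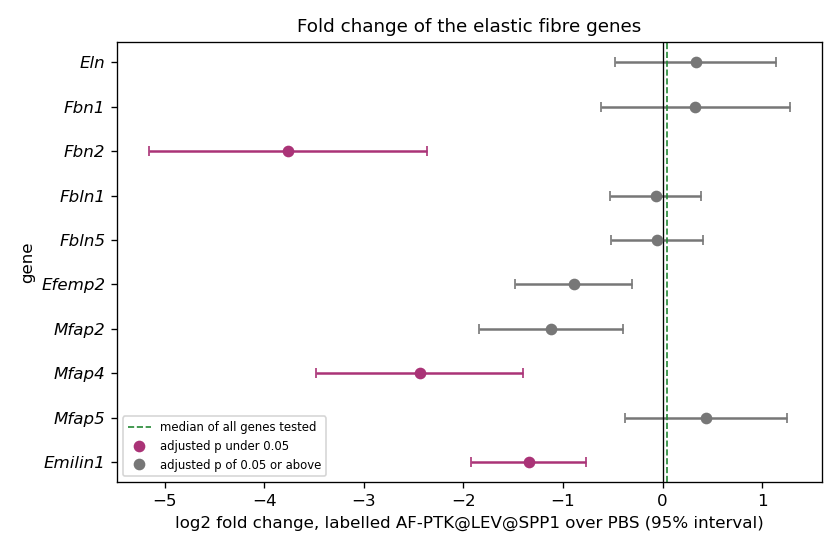
Log2 fold change (x axis, labelled AF-PTK@LEV@SPP1 over PBS) of each of the 10 genes from edgeR's quasi-likelihood fit over 5 distinct samples, with 95% intervals as bars, adjusted p under 0.05 in purple, and the median of all genes tested as a dashed line. Fbn2, Mfap4 and Emilin1 have intervals wholly below 0 and pass the threshold, and the intervals of Eln, Fbn1, Fbln1, Fbln5 and Mfap5 span 0.

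The 3 calls lay near the threshold and depended on which samples were used. Over all 13 alternatives, passed or not, the log2 fold change of Fbn2 ran from -4.39 to -2.61. That of Mfap4 ran from -2.94 to -1.67 and that of Emilin1 from -1.63 to -0.997. The values nearest to 0 came from the fit without the pair of PBS replicates 2 and 3. Fbn2 passed in 9 alternatives, Mfap4 in 8 and Emilin1 in 8. The alternatives include fits that leave 1 distinct PBS sample. Those without PBS replicate 2 alone or replicate 3 alone kept the same distinct samples as the main fit and could do little but repeat it. Those over 6 libraries counted this near-identical pair as separate samples. The number of alternatives passed is therefore no measure of robustness. Efemp2 and Mfap2 were negative in 13 of 13 and passed in 2 and 3. Eln, Fbn1 and Mfap5 were positive in 13 of 13, scaling alternatives included, and passed in 0. Their sizes depended on single libraries: without treated-labelled replicate 1 the log2 fold changes were 0.047, 0.011 and 0.26, and without replicate 2 they were 0.58, 0.60 and 0.69. Genes that share sequence, such as Fbn1 and Fbn2, can exchange reads depending on how reads with several matches were counted, which the sources used here do not state.

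Among themselves the 10 genes varied in 2 sets over the 5 distinct samples, given as a description of samples that include both groups. Eln, Fbn1 and Mfap5 had Pearson correlations of log2 CPM of 0.83 to 0.95 with each other, and Fbn2, Efemp2, Mfap2, Mfap4 and Emilin1 of 0.91 to 1.00. Correlations between the sets ran from -0.40 to 0.06, and Fbln1 and Fbln5 had 0.27 to 0.74 with the genes of either (n = 5). In the first set the groups overlapped, and the coefficient of variation was 32.3% (Mfap5) to 38.9% (Fbn1) among the treated-labelled libraries and 5.71% (Eln) to 17.1% (Mfap5) in PBS. In the second the groups lay apart, and it was 24.9% (Efemp2) to 77.5% (Fbn2) in PBS and 11.6% (Fbn2) to 22.0% (Mfap4) in the other group, with the values of Efemp2 close, at 24.9% and 19.98%. Treated-labelled replicate 2 was the lowest of the 6 libraries for 8 of the 10 genes, and PBS replicate 1 stood below the pair of PBS replicates 2 and 3 and above every treated-labelled library for 5. Counts of the 10 genes together made up 0.130%, 0.137% and 0.137% of the PBS libraries and 0.145%, 0.0786% and 0.116% of the others.

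Among tested genes whose mean log2 CPM was 3 or more, those whose profile over the 5 samples was most like that of Eln were Higd1a, Pdp1, Cyb561d1, Pfkp and H1f0 (Pearson r 0.98 to 0.99). For Fbn2 they were Slc20a1, Col5a3, B4galt1, Rara and Zfp281, for Mfap4 Btg3, Desi2, Kcne4, Mmp2 and Golph3, and for Emilin1 Btd, Rcn1, Ythdf3, Csrp2 and Vwf, all with r at 1.00 to 2 decimals. With 5 samples and 10094 candidate genes, values this high describe the profiles and carry no test.

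A list of 17 further genes held other fibulins and emilins, the latent TGF-beta binding proteins, Mfap3, Hmcn1 and 6 genes of ADAMTS type (Adamts10, Adamts6, Adamtsl2, Adamtsl4, Adamtsl5 and Thsd4), which belong to none of the families of the 10 members. Of the 17, 1 was called lower and 0 higher by edgeR, against 2.57% and 1.13% of all genes tested. At an unadjusted p under 0.05, 3 were lower and 2 higher, near the 13% and 12.4% of all genes. DESeq2 called 3 lower and 1 higher, against 8.75% and 6.65% of the genes to which it gave an adjusted p. The median log2 fold change of the 17 was 0.08. The called gene was Ltbp2, a latent TGF-beta binding protein that associates with microfibrils and binds fibulin-5. Ltbp2 had 129, 248 and 250 normalized CPM in PBS and 29.1, 17.8 and 27.1 in the treated-labelled libraries. All 3 of the latter lay far below the lowest PBS library, and Ltbp2 fell by 2.94 on the log2 scale (standard error 0.36; edgeR adjusted p = 0.0276). Without treated-labelled replicate 1, 2 or 3, or the pair of PBS replicates 2 and 3, 0 of the 17 were called lower, and 2 were called lower without PBS replicate 1. Ltbp3, the most abundant of the 17 by mean CPM, had 111 to 179 in PBS and 109 to 140 in the other group, with a log2 fold change of -0.21 (edgeR adjusted p = 0.608).

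Elastin is crosslinked by lysyl oxidases. Of 5 such genes, edgeR called 0 in either direction, 1 was lower and 0 higher at an unadjusted p under 0.05, and DESeq2 called 0, with a median log2 fold change of -0.11. Among all genes, 2.57% were lower and 1.13% higher by edgeR, 13% and 12.4% unadjusted, and 8.75% and 6.65% by DESeq2. Loxl2, the most abundant, had 439, 1176 and 1173 normalized CPM in PBS and 863, 528 and 915 in the treated-labelled libraries. PBS replicate 1 was the lowest library and the groups overlapped (log2 fold change -0.07, 95% interval -1.29 to 1.14; edgeR adjusted p = 0.938).

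Several proteases that cleave elastin were lower in the treated-labelled libraries. Of 10 tested, 5 were called lower and 0 higher by edgeR, 6 lower and 0 higher at an unadjusted p under 0.05 and by DESeq2, with a median log2 fold change of -1.51. Over all genes 2.57%, 13% and 8.75% were lower by these rules. Mmp12, the macrophage elastase, had 478, 283 and 295 normalized CPM in PBS and 2.82, 3.55 and 4.38 in the treated-labelled libraries. Each of the latter stood far below every PBS library, and Mmp12 fell by 6.74 on the log2 scale (standard error 0.33; edgeR adjusted p = 0.00863). Ctsk, the osteoclast cathepsin and the most abundant of the list, had 4091, 2709 and 2696 in PBS and 573, 484 and 285 in the others, and fell by 2.93 (edgeR adjusted p = 0.0306). The gelatinases Mmp2 and Mmp9 and the membrane protease Mmp14 fell by 2.39, 1.66 and 2.50 (edgeR adjusted p = 0.0444, 0.026 and 0.026), again without overlap. Without the pair of PBS replicates 2 and 3, the log2 fold change of Mmp2 was -1.69. Mmp7 was not tested, with 12, 6 and 3 counts in PBS and 1, 2 and 1 in the others. Elane, Prtn3 and Ctsg, serine proteases of neutrophil granules, had log2 fold changes in the other direction, of 2.04, 1.61 and 1.99, and were not called (edgeR adjusted p = 0.434, 0.557 and 0.471). Elane had 10.8, 0.323 and 0.429 normalized CPM in PBS and 3.53, 29.4 and 34.4 in the treated-labelled libraries. All 3 genes overlapped between the groups and were highest in treated-labelled replicates 2 and 3, as was the sum of the neutrophil markers given further on, whose part in these values was not tested. Over the 10 genes, 0 were called lower without treated-labelled replicate 2 or 3, 1 without replicate 1 (Mmp12), 1 without the pair of PBS replicates 2 and 3 (Mmp12), and 3 without PBS replicate 1 (Mmp2, Mmp12 and Mmp14).

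Inhibitors of these proteases were also lower in part. Of 8, edgeR called 2 lower and 0 higher, 4 were lower and 2 higher at an unadjusted p under 0.05, and DESeq2 called 4 lower and 2 higher, with a median log2 fold change of -0.62. Shares over all genes were 2.57% lower and 1.13% higher by edgeR, 13% and 12.4% unadjusted, and 8.75% and 6.65% by DESeq2. Slpi, an inhibitor of neutrophil elastase, had 664, 1028 and 1009 normalized CPM in PBS and 4.52, 11.2 and 18.1 in the treated-labelled libraries. The groups lay far apart, and Slpi fell by 6.22 on the log2 scale (standard error 0.65; edgeR adjusted p = 0.0221). Timp1, a tissue inhibitor of metalloproteinases, fell by 2.93 (standard error 0.20; edgeR adjusted p = 0.0119), from 502, 552 and 558 to 72.4, 55.9 and 80.6. Cst3, a cathepsin inhibitor and the most abundant of the list, had 1395, 613 and 599 in PBS and 1502, 1725 and 1555 in the others, a log2 fold change of 0.67 (edgeR adjusted p = 0.327). The calls of Slpi and Timp1 were lost without treated-labelled replicate 2 or 3 and without the pair of PBS replicates 2 and 3.

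Markers of several cell types moved with the groups or with single libraries, and in bulk RNA fewer cells of a type cannot be told apart from less RNA per cell. Markers of loose connective tissue fibroblasts summed to 8516, 17241 and 17246 normalized CPM in PBS and 5021, 4586 and 6585 in the treated-labelled libraries. In this sum PBS replicate 1 again had an intermediate value. Of the 8 markers edgeR called 1 lower and 0 higher, with 2 lower and 1 higher at an unadjusted p under 0.05 and by DESeq2. Over all genes 2.57% were lower and 1.13% higher by edgeR, 13% and 12.4% unadjusted and 8.75% and 6.65% by DESeq2, which are also the shares for the marker lists that follow. The called gene, Lum, fell by 3.40 on the log2 scale (edgeR adjusted p = 0.0303), a call lost without any 1 treated-labelled library or the pair of PBS replicates 2 and 3. Without that pair the log2 fold change of Lum was -2.63. Dcn, the most abundant, had 5423, 10680 and 10655 against 3978, 3561 and 5312. Dcn and Lum made up most of the sum, and the median log2 fold change of the 8 markers was 0.04, with 5 above 0 and 3 below. Pi16 had 38.9, 9.36 and 9.12 in PBS and 204, 120 and 264 in the treated-labelled libraries, a log2 fold change of 3.03 that was not called (edgeR adjusted p = 0.0885). Clec3b had 33.3, 7.74 and 8.08 against 52.8, 56.4 and 60.6 (log2 fold change 1.47, edgeR adjusted p = 0.204). These 2 markers lay higher in the treated-labelled libraries without overlap, so the markers did not move one way. The part of such cells in the lower counts of Fbn2, Mfap4 and Emilin1 was not tested.

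Markers of macrophages, cells that express Mmp12, summed to 2985, 2052 and 2029 normalized CPM in PBS and 629, 1754 and 1850 in the treated-labelled libraries. Replicate 1 of the latter was far below the other libraries. Of 9 markers edgeR called 2 lower, Cd68 (log2 fold change -1.97, adjusted p = 0.0231) and Cd14 (-1.89, adjusted p = 0.0119), and 0 higher, with 4 lower and 0 higher at an unadjusted p under 0.05 and by DESeq2 and a median log2 fold change of -0.89 over the list, where 2.57%, 13% and 8.75% of all genes were lower by edgeR, unadjusted and by DESeq2. Both calls were lost without treated-labelled replicate 2 or 3 and without the pair of PBS replicates 2 and 3, and that of Cd68 also without treated-labelled replicate 1 or PBS replicate 1. Lyz2, the most abundant, had 1834, 1271 and 1250 in PBS and 272, 1237 and 1398 in the others. It made up the largest part of the sum, and not every marker set treated-labelled replicate 1 apart. Itgam had 15.2, 59.2 and 64.7 in the treated-labelled libraries. Csf1r had 104, 111 and 101 there, against 262, 146 and 148 in PBS. The part of macrophages in the lower protease counts was not tested.

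Skeletal muscle markers summed to 785, 1007 and 1022 normalized CPM in PBS and 798, 8169 and 2114 in the treated-labelled libraries, with Acta1 the most abundant. The library with the highest sum, replicate 2, was also the one with the lowest counts of Eln, Fbn1 and Mfap5 in its group. Smooth muscle and pericyte markers, from cells that make elastin in vessel walls, summed to 677, 790 and 800 in PBS and 1657, 813 and 768 in the others. Here replicate 1 stood apart, the library with the most Eln, and the most abundant marker, Acta2, had 460 there and 154 to 178 in the other 5 libraries. Myh11, Tagln, Cnn1 and Lmod1 were also highest in that library, but not every marker set it apart. In treated-labelled replicates 1, 2 and 3, Des had 74.3, 227 and 81.9, Rgs5 182, 168 and 202, and Smtn 31.9, 35.6 and 31.7. Endothelial markers, led by Pecam1, summed to 558, 675 and 659 in PBS and 415, 484 and 484. This sum was lower in all 3 libraries labelled AF-PTK@LEV@SPP1. Of the 5 muscle, 8 smooth muscle and 7 endothelial markers edgeR called 0. DESeq2 called 0, 0 and 3 lower and 0 higher, and at an unadjusted p under 0.05 there were 0, 1 and 4 lower and 0, 1 and 0 higher. Their median log2 fold changes were 1.97, 0.69 and -0.44. The part of these tissues in the spread of Eln and Fbn1 was not tested.

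Markers of the annulus and tendon, led by Col1a1, summed to 56964, 83493 and 84378 normalized CPM in PBS and 117429, 82989 and 100241 in the treated-labelled libraries. Those of the nucleus pulposus and cartilage, led by Col2a1, summed to 19960, 27517 and 27334 against 41799, 28496 and 41947. In both sums PBS replicate 1 was the lowest library, and treated-labelled replicate 2 was the lowest of its group, as it was for Eln and Fbn1. Col1a1 and Col1a2 made up most of the first sum and Col2a1 most of the second. Of the 9 annulus and tendon markers, 6 had log2 fold changes above 0 and 3 below (Scx, Thbs4 and Col12a1). Col12a1 had 1840, 5540 and 5579 in PBS and 874, 572 and 455 in the others, without overlap. Its log2 fold change was -2.55 and was not called (edgeR adjusted p = 0.0728), so these markers did not move one way. Within PBS, Acan, Col2a1 and Sox9 were lowest in replicate 1. Col9a1, Matn3, Krt8, Krt18, Tbxt, Cd24 and Car3 were highest there. Among the treated-labelled libraries, Col9a1, Matn3 and Car3 were lowest in replicate 3. Between the groups, Krt8, Krt18, Tbxt, Cd24 and Car3 lay higher in every treated-labelled library (log2 fold changes 2.22, 3.08, 2.54, 2.00 and 2.06). Over all genes tested, 21.5% lay above without overlap. Col9a1 and Matn3 had log2 fold changes of -0.83 and -1.24. The part of these tissues in the values of the 10 genes was not tested. Of 9 and 10 markers edgeR called 0, with 1 and 1 lower and 1 and 5 higher at an unadjusted p under 0.05, and DESeq2 called 1 and 1 lower and 2 and 5 higher. The median log2 fold changes were 0.48 and 1.36. Relative to Col1a1, Eln did not separate the groups either, at 0.284, 0.219 and 0.218 counts per 100 in PBS and 0.246, 0.164 and 0.244 in the others.

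Neutrophil markers, led by S100a9, summed to 1048, 173 and 163 normalized CPM in PBS and 267, 2492 and 3476 in the treated-labelled libraries. Adipocyte markers, led by Adipoq, summed to 268, 48.2 and 46.8 against 565, 1027 and 423. PBS replicate 1 was the highest PBS library in both. Bone markers, led by Ibsp, summed to 4566, 1794 and 1788 against 2164, 3111 and 1798, again highest in PBS replicate 1. Of 6 genes tested in each of these 3 lists edgeR called 0, and at an unadjusted p under 0.05 and by DESeq2 4 adipocyte markers were higher, 0 neutrophil and bone markers were higher and 0 of the 3 lists were lower. Median log2 fold changes were 1.89 for neutrophil, 2.40 for adipocyte and -0.30 for bone markers. Ltf was at 0 in 5 libraries with 1 count in PBS replicate 1, and 0 of the other markers were at 0 in every library. The part of these cells in the values of the 10 genes was not tested.

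The paired genes Mfap2 with Mfap5 and Efemp2 with Fbln5, whose ratio did not overlap between the groups, were also set side by side by the sequence upstream of their starts. RefSeq's GRCr8 table held an entry for 6 of the 10 genes, Fbn1, Fbn2, Fbln5, Efemp2, Mfap2 and Mfap5. In all, 10 motifs were searched on both strands of the 250 bases before the start. The 4 marked in the sequences, chosen after the matches had been seen, are the GC box GGGCGG, the CCAAT box CCAAT, the TATA box TATAAA and the AP-1 element TGANTCA. The GC box was found in 3 of the 6, Fbln5, Efemp2 and Mfap2, and in 30.5% of 33469 promoters of the same length. CCAAT was found in 2 of the 6, Efemp2 and Mfap5, and in 34.0% of all. TATAAA and TGANTCA were found in 0 of the 6 and in 12.9% and 6.34% of all. The 6 motifs that are not marked included the NF-kB element, found in 3 of the 6 (Fbn1, Efemp2 and Mfap2) and in 16.4% of all, the SMAD element CAGACA, in 1 (Fbn1) and 17.2%, the TEAD element GGAATG, in 1 (Fbn2) and 12.1%, and the SMAD palindrome GTCTAGAC and the cyclic AMP element TGACGTCA, in 0 of the 6 and in 0.173% and 1.59% of all. The last of them, the CArG box, was found in 0 of the 6 and in 501 of the 33469 promoters. The 4 sequences below are written 5′ to 3′ on the gene's strand with matches of the 4 marked motifs in capitals, and lie at chr5:158597478-158597727 (plus strand, Mfap2), chr4:157399669-157399918 (plus, Mfap5), chr1:212211472-212211721 (plus, Efemp2) and chr6:126742707-126742956 (minus, Fbln5).
Mfap2: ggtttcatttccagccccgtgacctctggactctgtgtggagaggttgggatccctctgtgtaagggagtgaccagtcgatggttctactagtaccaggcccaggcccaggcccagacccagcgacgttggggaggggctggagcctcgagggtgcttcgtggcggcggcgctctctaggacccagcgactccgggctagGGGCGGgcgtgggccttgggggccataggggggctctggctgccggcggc
Mfap5: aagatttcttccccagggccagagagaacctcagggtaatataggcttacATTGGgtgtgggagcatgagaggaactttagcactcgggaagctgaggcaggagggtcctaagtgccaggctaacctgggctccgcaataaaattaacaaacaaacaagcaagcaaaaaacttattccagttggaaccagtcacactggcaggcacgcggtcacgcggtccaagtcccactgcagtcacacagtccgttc
Efemp2: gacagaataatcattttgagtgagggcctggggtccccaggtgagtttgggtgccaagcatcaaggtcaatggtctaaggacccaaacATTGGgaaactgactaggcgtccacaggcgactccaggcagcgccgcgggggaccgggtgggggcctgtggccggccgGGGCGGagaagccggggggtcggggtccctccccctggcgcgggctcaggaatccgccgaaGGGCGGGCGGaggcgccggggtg
Fbln5: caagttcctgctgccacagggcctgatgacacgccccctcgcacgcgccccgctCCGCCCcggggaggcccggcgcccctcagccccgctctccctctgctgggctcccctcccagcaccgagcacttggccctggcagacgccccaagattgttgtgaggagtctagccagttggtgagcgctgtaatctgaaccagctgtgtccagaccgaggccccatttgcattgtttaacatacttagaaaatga
Mfap2 held 1 GC box and Mfap5 1 CCAAT box, read as ATTGG on the printed strand. Efemp2 held 3 GC boxes, of which 2 overlap, and 1 CCAAT box, and Fbln5 held 1 GC box, read as CCGCCC. G and C made up 67.6% of these bases in Mfap2, 51.6% in Mfap5, 68.0% in Efemp2 and 63.2% in Fbln5, against a median of 51.2% over all promoters. Fbn2 and Fbn1, whose ratio did not overlap either, had 70.0% and 71.2%, and held 0 matches of the 4 marked motifs, so their sequences are not printed.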

How the data were processed

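RNA of 6 rat disc libraries, 3 PBS and 3 labelled AF-PTK@LEV@SPP1, was analysed from the table of read counts per Ensembl gene that the authors deposited, without normalization. Its columns do not carry the sample titles, and were assigned to samples by the treatment in their name and their replicate number, so every PBS and treated-labelled value rests on that assignment. The submitters' processing notes name FastQC, Trimmomatic, HISAT2, featureCounts and DESeq2, and the mouse build mm10, although the gene identifiers are rat; the rule for strand and for reads shared by genes is not given in the sources used here. Libraries held 15560728 to 17942989 counts.

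PBS replicates 2 and 3, which differed little beyond counting noise, were summed to 1 sample. edgeR 4.0.16 (R 4.3.3) was run on the counts of the 5 samples (TMM scaling, filterByExpr with a minimum count of 10, quasi-likelihood test), and p-values were Benjamini-Hochberg adjusted over 15537 genes. Normalized CPM are counts divided by the TMM-scaled library size. Log2 CPM used a prior count of 2. Standard errors were taken from the F statistic. Single ratios were compared with two-sided exact permutation tests. Ratios of Mfap4, Mfap2 and Mfap5 to Fbn1 and of Fbn1 to Col1a1 were also computed. The share of all gene pairs whose ratio lies apart was not computed.

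The members and gene lists were chosen with earlier results of these data known. Named genes were the 10 members, Spp1, in each other list the genes called (at most 6) and the most abundant one, and the 5 genes most correlated with Eln and each called member; others were named after their values were seen. List genes were matched by name; Krt19, Myh1 and Mylpf had no row of that name and were not used. Alternatives were the 6 libraries kept apart, with and without the replicate number as a block, DESeq2 1.42.0, its size factors in edgeR, no filter, each library or the PBS pair left out and, added after the data were seen, library totals without TMM.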

Additional observations from a re-analysis of the deposited data

How the results depend on the processing

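With other size factors, no filter or library totals, 3 elastic fibre genes were called lower and 0 higher, as in the report. Genes called higher and lower over the whole table, 175 and 400, became 1233 and 1494 with all 6 libraries kept apart, 1079 and 1420 with DESeq2, and 0 and 3 without the pair of PBS replicates 2 and 3. Leaving out 1 library gave 0 to 170 higher and 0 to 396 lower. The 3 elastic fibre genes called lower became 5 with 6 libraries, 5 with DESeq2, 0 without the PBS pair and 0 to 4 with 1 library left out. Among related microfibril genes, 1 lower call became 3 with 6 libraries, 3 with DESeq2, 2 without a filter, 2 with library totals (an alternative chosen after seeing the data), 0 without the PBS pair and 0 to 2 with 1 library left out, and DESeq2 called 1 higher. Lower calls among elastin-cleaving proteases, 5 at first, were 1 without the PBS pair and 0 to 5 with 1 library left out. Those among inhibitors, 2 at first, were 4 with 6 libraries and with DESeq2, both of which also called 2 higher, 0 without the PBS pair and 0 to 2 with 1 library left out. Spp1 had a log2 fold change of -0.066 without the PBS pair, not called. Fits without a library or the pair have fewer samples; the cause of the other shifts was not tested.

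With the replicate number as a block over 6 libraries, 287 genes were higher and 416 lower, 1 elastic fibre gene was lower (Fbn2) and 1 related gene was higher. Deviations of same-numbered libraries correlated at -0.32, -0.27 and -0.08, so the numbers are not taken to pair the samples.

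Members kept the sign of their log2 fold change in all 13 alternatives except Fbln1 and Fbln5. The median log2 fold change of all genes stayed between 0.01 and 0.06. Depth limits genes near 3 counts, such as Mmp7, and none of the 10 members.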
